A study of Arabidopsis thaliana with 4 samples.

Results

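Auxin response factors (ARFs) are the transcription factors that bind auxin response elements in promoters, and 8 of the Arabidopsis thaliana family are described here because small RNAs target their messenger RNAs. They were chosen by locus, by a rule that uses no measured value, though with earlier results of these data known. ARF6 (AT1G30330) and ARF8 (AT5G37020) are targets of miR167, ARF10 (AT2G28350), ARF16 (AT4G30080) and ARF17 (AT1G77850) of miR160, and ARF2 (AT5G62000), ARF3 (AT2G33860) and ARF4 (AT5G60450) of the trans-acting siRNA made from TAS3 RNA. All 8 had a value in all 4 libraries, among 23498 loci with a value in any library and 17049 with a value in all 4.

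The abh1 group holds 2 libraries of plants in the Col-0 background with a loss-of-function mutation of ABH1, the large subunit of the nuclear cap-binding complex, and the mutant allele is not described in the labels. The Col-0_CHX group holds 2 wild-type Col-0 libraries. Their titles carry CHX, an abbreviation the labels leave unexplained, while the treatment field speaks of untreated plants for all 4. Every library is labelled as immature inflorescence, from buds taken at about 4 weeks of age under 16 h of light and 8 h of dark. Genotype and CHX differ together and cannot be told apart, and no label ties the replicates to separate plants. A p-value here therefore covers only library-to-library spread, which may be technical.

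Auxin lets the TIR1/AFB receptors mark Aux/IAA repressors for breakdown, which frees ARFs from Aux/IAA proteins and the TPL corepressors they recruit. ARF6 and ARF8 belong to the ARFs that activate transcription, and the other 6 to those that act mainly as repressors. In plants an Argonaute protein loaded with a small RNA can slice the target RNA at the paired site. The downstream piece of a sliced RNA lacks a cap, as do RNAs that enter decay by decapping. The assay, GMUCT (global mapping of uncapped and cleaved transcripts), sequences the front ends of such polyadenylated RNAs. In the labelled tissue ARF6 and ARF8 are known for driving the last steps of flower maturation, ARF3 and ARF4 for the polarity of lateral organs, and ARF17 for the pollen wall.

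For every listed gene a library has 1 index of co-translational RNA decay, which is a positive, unitless ratio. The sources used here give neither its formula nor the reads behind it, so no value is read as more or less decay, and the depth is unknown. The libraries hold 22495 and 22492 loci (abh1) against 18321 and 18215 (Col-0_CHX), and their median index over the 17049 common loci was 1.15 and 1.14 for abh1, against 1.37 and 1.29 for Col-0_CHX. A sign of few reads is a ratio that many loci hold exactly. A value was called repeated when more than 10 loci of the library had it, which applied to 27.2% and 29.3% of loci for abh1, against 43.6% and 42.7% for Col-0_CHX. Of 13 flower identity markers, the abh1 libraries both listed 13 and the Col-0_CHX libraries both listed 2 (AP2 and SEP4). For 9 tapetum and pollen markers the numbers were 9 and 1 (PKSA), and for 4 markers of photosynthetic tissue 4 and 4. Whether the libraries differ in tissue was not tested, and this touches every difference between the groups below. The 8 ARFs had no such gap in listing: 100% of them were listed in each Col-0_CHX library, where 78.0% of all loci listed in both abh1 libraries did.

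All 8 ARFs had a lower mean log2 index in abh1 than in Col-0_CHX, and so had 72.2% of the 17049 loci tested, although the sign of ARF3 turned with quantile normalization (0.0074 on the log2 scale) and that of ARF8 without the first Col-0_CHX library. At 7 of the 8, both abh1 values lay below both Col-0_CHX values, where 45.2% of all loci did so. Their log2 differences, abh1 minus Col-0_CHX, ran from -1.47 to -0.32 with a median of -0.55, and the median over all loci was -0.23. The median of the 8 was -0.91 without the second Col-0_CHX library. Over all loci the moderated test of limma called 0 of the 8, and in it 0.00% of loci were called in either direction. Their Benjamini-Hochberg adjusted p ran from 0.167 to 0.724. At an unadjusted p under 0.05 there were 5 of the 8, all lower in abh1, against a share of 17.2% among all loci for that direction and level. With quantile normalization, which gives the libraries 1 common spread, the log2 difference was -1.09 for ARF17, -0.73 for ARF6, -0.68 for ARF4 and between -0.28 and 0.0074 for the other 5. With each library centred on its median it was -0.35 for ARF3, -0.31 for ARF16, -0.29 for ARF8, -0.28 for ARF2 and -0.099 for ARF10.

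**Figure D1:**
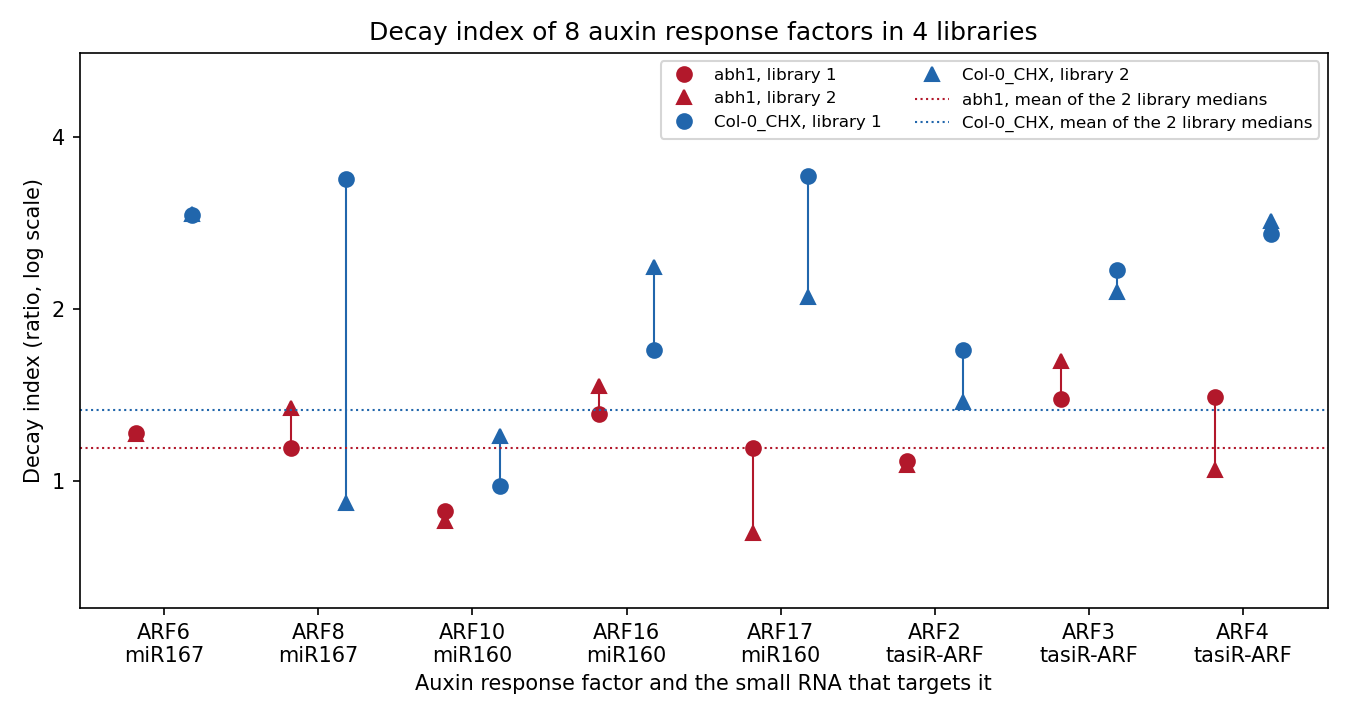
Decay index (ratio, log scale) of each of the 8 ARFs, abh1 in red left of Col-0_CHX in blue, with 1 point per library, a line joining the 2 libraries of a group and dotted lines at the mean of the 2 library medians. At every ARF but ARF8 the red points lie below the blue ones, and the ARF8 values in Col-0_CHX, 3.38 and 0.917, enclose its abh1 values.

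Of the miR167 targets, ARF6 was the most even of the 8 between libraries of a group. Its indices were 1.21 and 1.21 for abh1, against 2.92 and 2.93 for Col-0_CHX. The groups lay far apart next to that spread, by -1.27 ± 0.13 (SE) on the log2 scale, so that the index was 2.41-fold higher in Col-0_CHX. The limma adjusted p of ARF6 over all 17049 loci was 0.167. Only 3.97% of all loci had a difference further below 0.

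ARF8, which acts redundantly with ARF6 in stamens and the gynoecium, did not share that evenness. It had indices of 1.14 and 1.34 for abh1, against 3.38 and 0.917 for Col-0_CHX. The Col-0_CHX values thus lay on both sides of the abh1 values. The log2 difference of ARF8 was -0.51 ± 0.72 (SE), with a limma adjusted p of 0.724. Without the first Col-0_CHX library it was 0.43 and without the second -1.45. Both Col-0_CHX values of ARF8 were repeated ones, held by 12 and 29 loci of those libraries. The 2 Col-0_CHX libraries differed by 1.88 on the log2 scale at ARF8, and 95.2% of all loci had a smaller gap.

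The miR160 targets ran in their log2 difference from -1.47 for ARF17 to -0.32 for ARF10. ARF17, a factor needed for the wall of the pollen grain, had indices of 1.14 and 0.812 for abh1, against 3.42 and 2.1 for Col-0_CHX. Its groups did not overlap, and its log2 difference of -1.47 ± 0.35 (SE) had a limma adjusted p of 0.183. That difference was below those of the other 7 with all 4 libraries, but without the first Col-0_CHX library it was -1.12, against -1.27 for ARF6 and -1.23 for ARF4, and without the second abh1 library it was -1.23, against -1.27 for ARF6. The second Col-0_CHX value was shared by 21 loci of that library. The 2 abh1 libraries differed by 0.50 on the log2 scale at ARF17, the widest such gap among the 8, where the median gap over all loci was 0.14.

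ARF10 and ARF16 are close relatives that act together in the root cap. ARF10 had indices of 0.888 and 0.851 for abh1, against 0.980 and 1.2 for Col-0_CHX, and was alone among the 8 in lying below 1 in 3 libraries. Its log2 difference was -0.32 ± 0.17 (SE), with a limma adjusted p of 0.384, and moved to -0.17 without the second Col-0_CHX library. Its value of 1.2 was held by 63 loci of the second Col-0_CHX library, more than any other value of the 8. ARF16 had 1.31 and 1.47 for abh1, against 1.70 and 2.36 for Col-0_CHX, which makes -0.53 ± 0.23 (SE) on the log2 scale, at a limma adjusted p of 0.307. Without the second Col-0_CHX library the difference of ARF16 was -0.29, without the first it was -0.77, and with quantile normalization it was -0.032. Its groups did not overlap, but the gap between the Col-0_CHX libraries, 0.48 on the log2 scale, was nearly as wide as the difference.

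At all 3 targets of the TAS3 siRNA both abh1 values lay below both Col-0_CHX values, with differences from -1.19 to -0.50. The same held at all 3 miR160 targets and at 45.2% of all loci. ARF4 had indices of 1.40 and 1.05 for abh1, against 2.7 and 2.84 for Col-0_CHX. Here the abh1 libraries were the less even ones. The log2 difference of ARF4 was -1.19 ± 0.21 (SE), a 2.28-fold higher index in Col-0_CHX, with a limma adjusted p of 0.167, and its value of 2.7 was held by 17 loci. ARF3, also called ETTIN and known for patterning the gynoecium, had 1.39 and 1.63 for abh1, against 2.34 and 2.14 for Col-0_CHX. Its log2 difference was -0.57 ± 0.16 (SE), at a limma adjusted p of 0.211, and was 0.0074 with quantile normalization. ARF2, a repressor of organ growth that also promotes leaf senescence, had 1.09 and 1.07 for abh1, against 1.70 and 1.37 for Col-0_CHX. The log2 difference of ARF2 was -0.50 ± 0.17 (SE), with a limma adjusted p of 0.248. No other locus of the same library shared a value with ARF2 or ARF3 in any of the 4 libraries.

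The order of the 8 by level was not the same in the 2 groups. In abh1 the mean index was highest for ARF3, at 1.51 ± 0.17 (SD, n = 2), followed by ARF16, ARF8, ARF4, ARF6, ARF2, ARF17 and last ARF10, at 0.869 ± 0.027 (SD, n = 2). The ranges of neighbours in that order overlapped at every step but the one between ARF6 and ARF2. The abh1 values of ARF4 (1.40 and 1.05) lay on both sides of those of ARF6 and of ARF2. In Col-0_CHX the mean was highest for ARF6, at 2.92 ± 0.0059 (SD, n = 2), followed by ARF4, ARF17, ARF3, ARF8, ARF16, ARF2 and again ARF10, at 1.09 ± 0.16 (SD, n = 2). There the ranges of neighbours overlapped at every step but those from ARF6 to ARF4 and from ARF2 to ARF10. Beyond neighbours, the Col-0_CHX values of ARF17 (3.42 and 2.1) and ARF8 (3.38 and 0.917) lay on both sides of those of ARF6. Those of ARF8 also lay on both sides of the values of ARF10 (0.980 and 1.2). The top mean of each group thus belonged to a different ARF, and ARF10 had the lowest mean in both. Single libraries did not all keep these places. ARF4 (1.40) lay above ARF3 (1.39) in the first abh1 library, and ARF17 (3.42) above ARF6 (2.92) in the first Col-0_CHX library. Below ARF10 lay ARF17 in the second abh1 library (0.812 against 0.851) and ARF8 in the second Col-0_CHX library (0.917 against 1.2).

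Set among all loci of a library, the 8 sat higher in Col-0_CHX than in abh1 by their median, with ARF3, ARF8 and ARF16 as members whose ranges overlapped. The share of common loci with a lower index had a median over the 8 of 56.6% and 49.3% for abh1, against 91.7% and 89.3% for Col-0_CHX. ARF6 lay above 63.5% and 63.7% of loci for abh1, against 94.6% and 95.9% for Col-0_CHX. ARF3 was high in every library, above 84.5% and 93.8% of loci for abh1, against 90.0% and 89.7% for Col-0_CHX. ARF17 lay above 49.7% and 6.56% of loci for abh1, against 96.5% and 89.0% for Col-0_CHX. ARF10 was in the lower part of all 4 libraries, above 10.5% and 8.36% of loci for abh1, against 13.4% and 39.0% for Col-0_CHX. The index spread more among loci in Col-0_CHX, with an SD on the log2 scale of 0.40 and 0.40 for abh1, against 0.67 and 0.65 for Col-0_CHX. A share of loci below, unlike a difference of indices, is not moved by a shift or a stretch common to all loci of a library. Whether few reads at single loci moved these shares was not tested. ARF8 lay above 96.4% and 13.2% of loci in the Col-0_CHX libraries.

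**Figure D2:**
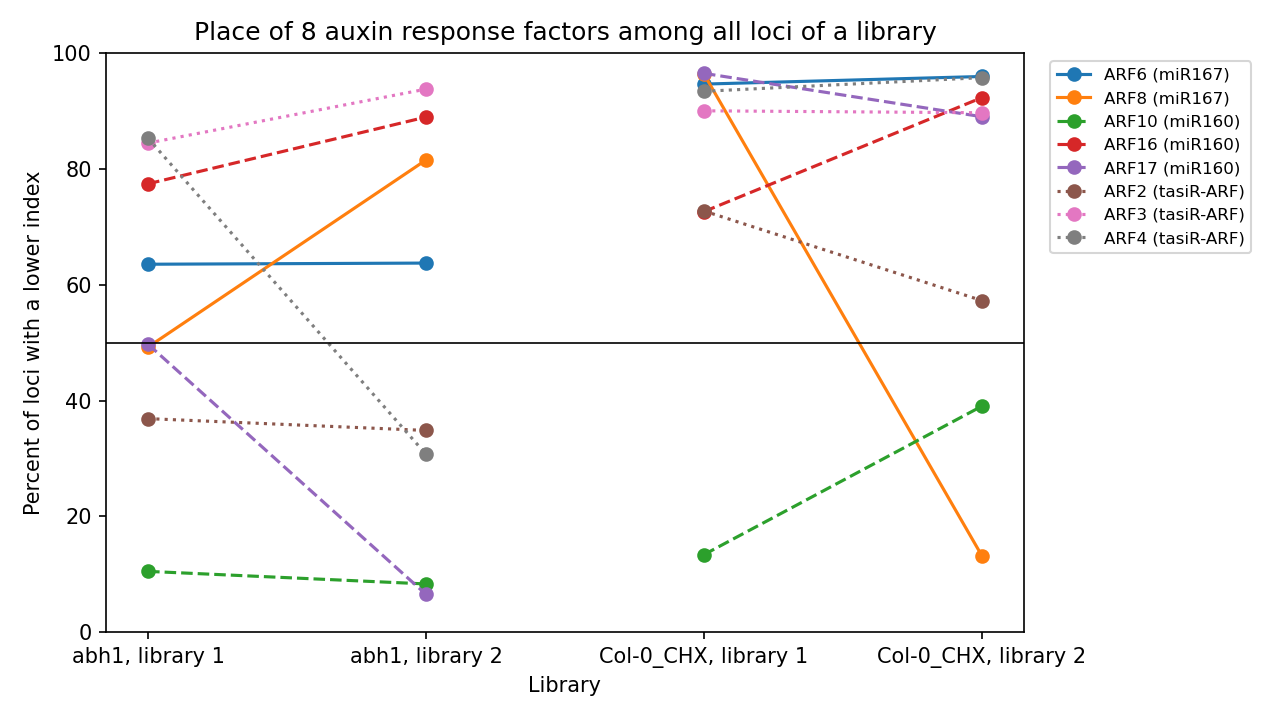
Percent of the 17049 common loci with an index below that of each ARF, by library, with abh1 left of Col-0_CHX and a line joining the 2 libraries of a group. ARF3 stays above 84.5% or more of the loci in all 4 libraries, ARF10 lies at or below 39.0% in all 4, and ARF8 falls on both sides of the middle in each group.

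Over the 6572 common loci without a repeated value, 4 of the 8 ARFs could be tested, namely ARF6, ARF16, ARF2 and ARF3. There limma called 8.03% of all loci as lower and 0.593% as higher in abh1, and 1 of the 4 ARFs, ARF6, fell, by 1.27 ± 0.095 (SE) on the log2 scale with an adjusted p of 0.0383. The adjusted p was 0.0689 for ARF3, 0.0956 for ARF2 and 0.154 for ARF16, and these did not pass. All 4 had non-overlapping groups with abh1 lower, as did 54.8% of these 6572 loci. The call of ARF6 was lost without the first abh1 library (limma adjusted p = 0.329), without the second (0.333), with each library centred on its median (0.0681) and with a limit of 20 loci for repeated values (0.0607). Without the second Col-0_CHX library ARF2 and ARF3 passed as well (limma adjusted p = 0.0268 and 0.0484), and without the first ARF16 did (0.0409). In these fits Col-0_CHX has 1 library, assumed to vary like those of abh1, and the spread comes from the abh1 pair alone, whose median gap over all 17049 loci was 0.14 on the log2 scale, against 0.32 for the Col-0_CHX pair. One Col-0_CHX value of ARF6 was held by 7 loci, so a limit of 5 in place of 10 left ARF6 out of the test.

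Of the other 15 ARFs, which served as the nearest relatives, 7 had an index in all 4 libraries. Their median log2 difference was -0.43 (-0.21 after centring, -0.12 with quantile normalization), with 5 lower and 2 higher in abh1. Both abh1 values lay below both Col-0_CHX values at 4 of the 7, near the 45.2% of all loci. The difference between the 2 sets of ARFs was not tested. ARF5, also called MONOPTEROS and needed for embryo patterning and flower initiation, had indices of 1.39 and 1.26 for abh1, against 4.5 and 2.63 for Col-0_CHX. The log2 difference of ARF5 was -1.38 ± 0.32 (SE), with a limma adjusted p of 0.183. Both Col-0_CHX values of ARF5 were repeated ones, held by 44 and 19 loci. ARF19, a regulator of lateral roots with ARF7, had 1 and 1.15 for abh1, against 8 and 1.5 for Col-0_CHX, so that its Col-0_CHX libraries differed more than those of ARF8. Its first abh1 value was held by 560 loci, its second Col-0_CHX value by 450 and the 8 by 10. ARF7 itself had 1.26 and 1.10 for abh1, against 1.45 and 1.72 for Col-0_CHX. ARF9 had 1.07 and 1.08 for abh1, against 1.65 and 2.01 for Col-0_CHX. Of the 2 other ARFs tested over the 6572 loci without a repeated value, ARF9 passed limma's test (log2 difference -0.77, adjusted p = 0.0484). In that fit 8.03% of all loci were called lower. After centring 0 loci were called, and 0 with a limit of 20 loci for repeated values.

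ARF1, which represses growth and acts partly redundantly with ARF2, had 1.41 and 1.41 for abh1, against 1.70 and 1.03 for Col-0_CHX. Its log2 difference was 0.095 ± 0.30 (SE), and the groups overlapped. Overlap was also seen for ARF11, at 1.20 and 1.14 for abh1, against 1.45 and 0.923 for Col-0_CHX, and for ARF18, at 1.04 and 1.17 for abh1, against 1.03 and 1.8 for Col-0_CHX. ARF14 had indices of 0.875 and 1.75 in the abh1 libraries and none in Col-0_CHX. ARF12 and ARF21 had 0.5 each, in the first abh1 library alone. The other 5 (ARF13, ARF15, ARF20, ARF22 and ARF23) had an index in none of the 4 libraries.

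**Figure D3:**
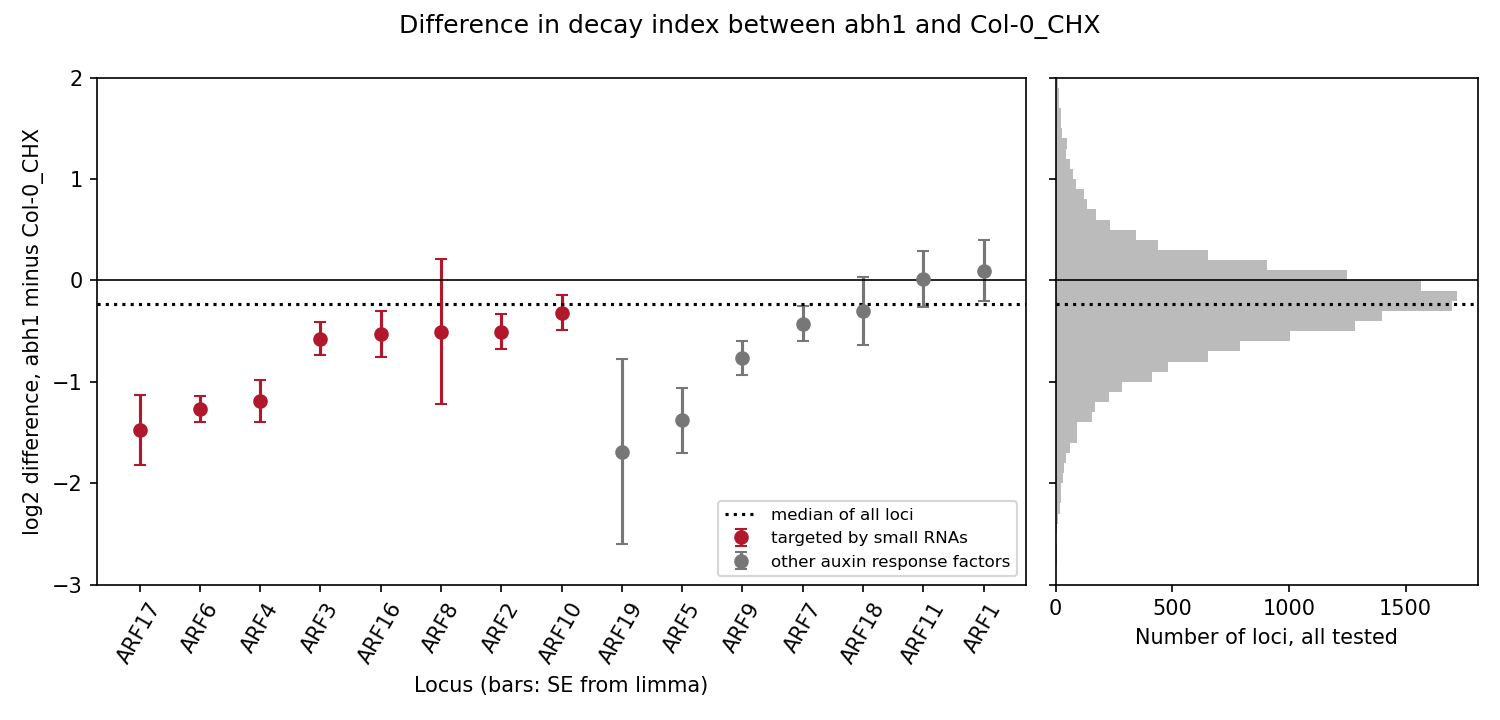
Left, log2 difference in decay index (abh1 minus Col-0_CHX) with the SE from limma for the 8 targeted ARFs (red) and the 7 other ARFs with an index in all 4 libraries (grey); right, the number of all 17049 loci at each difference, with the dotted line at their median of -0.23 and loci beyond the axis not drawn. The red points run from -1.47 to -0.32, and the grey points from -1.69 to 0.095.

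Upstream of the ARFs, all 6 TIR1/AFB receptors had a lower mean log2 index in abh1, as had 72.2% of all loci. With centring or quantile normalization AFB2 and AFB3 turned (0.082 and 0.071 after centring). None passed limma's test over all loci. Their median log2 difference was -0.51 (-0.29 after centring, -0.15 with quantile normalization). Over the loci without a repeated value, which leave out TIR1 and AFB4, the median of the 4 receptors tested was -0.21. The median of all loci of that set was also -0.21. AFB4 had indices of 1.01 and 1.21 for abh1, against 2.53 and 2.5 for Col-0_CHX, and TIR1 had 1.13 and 1.09 for abh1, against 2.39 and 3.167 for Col-0_CHX, with a limma adjusted p of 0.167 for each. The 2.5 of AFB4 was held by 206 loci of its library and the 3.167 of TIR1 by 13. The log2 difference was -1.18 for AFB4 and -1.31 for TIR1, about as far below 0 as for ARF4 and ARF6. AFB1 had a log2 difference of -0.75 and AFB5 of -0.27.

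Of 29 Aux/IAA repressors, which bind ARFs and block their action, 22 had an index in all 4 libraries, 19 lower and 3 higher in abh1, with a median of -0.29 and none past the test over all loci. After centring they were 12 lower and 10 higher, with a median of -0.067. IAA26 had indices of 1.13 and 1.27 for abh1, against 2.67 and 2.27 for Col-0_CHX. IAA11 had 1.10 and 0.710 for abh1, against 3.42 and 2.06 for Col-0_CHX. The 2.67 of IAA26 was held by 38 loci of its library and the 2.06 of IAA11 by 12. Smaller differences were found at IAA16 (-0.58 ± 0.17, SE) and IAA2 (-0.50 ± 0.14, SE). These 4 are named for having the smallest p of the list. Over the list, both abh1 values lay below both Col-0_CHX values at 17 of the 22, where 45.2% of all loci did so.

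Among the TPL/TPR corepressors, TPL itself had indices of 1.23 and 1.22 for abh1, against 2.36 and 2.05 for Col-0_CHX. Its log2 difference was -0.85 ± 0.15 (SE), with a limma adjusted p of 0.167 over all loci and 0.0383 over the loci without repeated values. The other 4 lay nearer 0, at -0.34 for TPR4, -0.33 for TPR2, -0.27 for TPR1 and 0.060 for TPR3, so the median of the 5 was -0.33, was -0.11 after centring and turned to 0.015 with quantile normalization. Over the 6572 loci without repeated values, where TPL passed, 8.03% of loci were called lower. After centring 0 loci were called, and 0 with a limit of 20 loci for repeated values. Values of TPL were held by 8, 9 and 7 loci, so a limit of 5 left TPL out of the test.

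The GH3 enzymes, which join auxin or other hormones to amino acids and include early auxin-induced genes, had a median log2 difference above 0, at 0.24, which was 0.46 after centring and 0.39 with quantile normalization. Of 7 with an index in all 4 libraries, 4 were higher and 3 lower in abh1, with none past limma's test. GH3.3 had indices of 1.12 and 1.22 for abh1, against 1.03 and 0.957 for Col-0_CHX. GH3.2 had 1.69 and 0.754 for abh1, against 0.625 and 0.6 for Col-0_CHX, so its abh1 libraries disagreed widely. Its Col-0_CHX values were held by 47 and 33 loci. The lower members were led by GH3.10, at 1.28 and 1.06 for abh1, against 1.82 and 1.83 for Col-0_CHX, and GH3.17, at 1.21 and 0.916 for abh1, against 1.5 and 3.88 for Col-0_CHX. The 1.5 of GH3.17 was held by 454 loci.

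**Figure D4:**
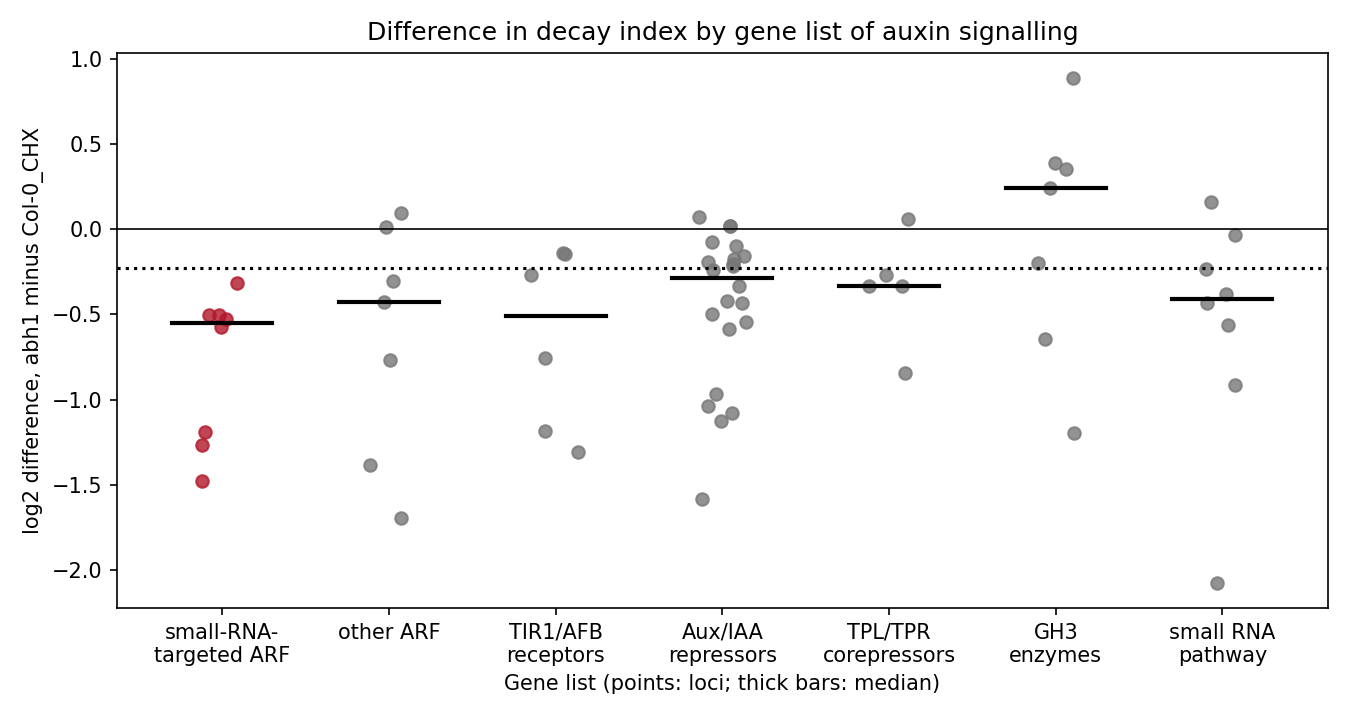
Log2 difference in decay index (abh1 minus Col-0_CHX) of each locus with an index in all 4 libraries, by list, with a thick bar at the median of the list, a solid line at 0 and a dotted line at the median of all loci, -0.23. The medians are -0.55 for the 8 targeted ARFs and 0.24 for the GH3 enzymes, and the points of every list overlap those of the others.

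For the small RNAs themselves, the 12 RNA loci (3 of TAS3, 3 of miR160, 4 of miR167 and 2 of miR390) had an index in no library. The 8 protein genes of the pathway all had one in each library, with a median log2 difference of -0.41, 7 lower and 1 higher in abh1. After centring the median was -0.19, with 6 lower and 2 higher, and with quantile normalization it was -0.11, with 5 lower and 3 higher. AGO7, the Argonaute that binds miR390 and starts siRNA production from TAS3, had indices of 0.864 and 0.955 for abh1, against 8 and 1.83 for Col-0_CHX. The value of 1.83 was a repeated one, held by 73 loci, and the 8 was held by 10 loci, just at the limit. The 2 Col-0_CHX libraries differed by 2.13 on the log2 scale at AGO7, and 96.6% of all loci had a smaller gap. The log2 difference of AGO7 was -2.08 ± 0.80 (SE). AGO1, which carries most plant microRNAs, had 1.37 and 1.34 for abh1, against 1.76 and 1.77 for Col-0_CHX, which makes -0.38 ± 0.13 (SE) on the log2 scale, at a limma adjusted p of 0.247. AGO10 had a log2 difference of -0.56 ± 0.20 (SE). DRB4, the partner of the Dicer enzyme that cuts TAS3 siRNAs, had 1.06 and 0.861 for abh1, against 1.5 and 2.17 for Col-0_CHX. Both Col-0_CHX values of DRB4 were repeated ones, held by 454 and 59 loci. None of these genes passed limma's test.

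The loci most like ARF6 over the 4 libraries were sought among the 3383 other loci that had a symbol and no repeated value, by Euclidean distance on the log2 scale. The nearest 5 were SKIP4, IDD7, NET1A, WRKY3 and BR6OX2, at distances from 0.11 to 0.30. SKIP4, an F-box protein, had indices of 1.21 and 1.15 for abh1, against 2.84 and 2.80 for Col-0_CHX. BR6OX2, an enzyme of brassinosteroid synthesis, had 1.22 and 1.22 for abh1, against 3.04 and 2.39 for Col-0_CHX. With 4 libraries in 2 groups, likeness here means little more than a similar level in each group.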

How the data were processed

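Per the labels' protocols, GMUCT reads were strand-specific and 50 nt long. The submitters' processing notes name cutadapt 1.4.2, STAR 2.4.0 and the TAIR10 genome. What the authors deposited is a linear ratio, the index of co-translational RNA decay, for 1 gene model per locus in each library, with formula and read minimum not given in the sources used here. Gene names follow a RefSeq table of assembly TAIR10.1, whose coordinates were not used.

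No pseudocount was added before taking log2 of the index. limma 3.58.1 under R 4.3.3 (lmFit, then eBayes, without covariates) tested the 17049 loci listed in every library, with a Benjamini-Hochberg adjusted p under 0.05 as the threshold, and was tried on simulated data. Other work used Python 3.11.15, numpy 2.4.6, pandas 2.3.3 and matplotlib 3.10.9. The ARFs, the lists, the limit for repeated values and the rule for named genes (every ARF, up to 4 loci per list with the smallest p, and the 5 loci nearest ARF6) were chosen with earlier results of these data known. AFB2, AFB3, TPR3 and the markers are named outside that rule. The alternatives were each library left out, a replicate block, centring, quantile normalization, trended and robust fitting, loci listed at least once per group, a pseudocount of 0.1, a threshold of 0.1 and loci without repeated values. Limits of 5 or 20 loci, and the last setting combined with others, were added after the data were seen. Exactly equal indices made up 0.737% (abh1) and 0.736% (Col-0_CHX) of loci shared by the 2 libraries of a group.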

Additional observations from a re-analysis of the deposited data

How the results depend on the processing

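Over all common loci, 0 were called in the fit as designed, and 0 with any single library left out, a replicate block, centring, quantile normalization, trended and robust fitting, loci listed at least once per group, a pseudocount of 0.1 or a threshold of 0.1. limma gave 3422 loci at an unadjusted p under 0.05. Over loci without a repeated value limma called 567, and 0 after centring. That count was 0 without the first or the second abh1 library, 1137 without the first and 1957 without the second Col-0_CHX library. In each of these fits 1 group has a single library, assumed to vary like the other group, whose pair alone gives the spread, so the 2 larger counts rest on the gap between the abh1 libraries. It was 658 with a limit of 5 loci and 0 with a limit of 20. Of the 8 ARFs, 0 were called with any library left out, 1 (of 4 tested) without repeated values, and of those 4, 2 on leaving out the first Col-0_CHX library and 3 on leaving out the second. The median log2 difference of the 8 ran from -0.91 to -0.49 with a library left out, and was -0.33 after centring and -0.27 with quantile normalization. The sign turned for ARF3 with quantile normalization (0.0074) and for ARF8 with a library left out (from -1.45 to 0.43, with the higher value without the first Col-0_CHX library), and in no other of the 111 refits of single ARFs. The cause of these shifts was not tested. The replicate block left every difference as it was and gave ARF6 a limma adjusted p of 0.345. Same-numbered libraries did not deviate together in this index (r = -0.0043 across 17049 loci, which are not independent replicates). That correlation cannot tell whether same-numbered libraries were grown or prepared together. The number of reads behind each index is unknown, which limits every value given.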
